A study of Mus musculus with 5 samples.

Results

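The genes described here are 8 voltage-gated sodium channel subunit genes, taken by symbol from a table of 55573 mouse genes, each matching 1 row. Of these, 5 encode pore-forming subunits (Scn1a, Scn3a, Scn8a, Scn9a and Scn10a) and 3 encode beta subunits (Scn2b, Scn3b and Scn4b). RNA was sequenced from 3 tumours with the genotype Th-Cre:MYC and from normal pancreas of 2 wild-type littermate controls. The tumour mice carry Cre driven by the promoter of tyrosine hydroxylase, the enzyme that starts catecholamine synthesis, and a CAG-STOP-MYC transgene whose floxed stop Cre cuts out. The title calls this a c-MYC-driven genetic neuroblastoma model, while the design text names the tissue pancreas tumour. Normal pancreas was perfused with an RNase inhibitor before RNA extraction, and such a step is not stated for tumours. The labels state neither age, sex nor batch. Tumour replicates 1 and 2 have titles with a common number, so they may come from 1 animal. The spread behind each p-value may then in part be that within 1 animal.

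Voltage-gated sodium channels open when a cell membrane depolarises and carry the fast inward current that starts an action potential. A large pore-forming subunit makes the channel by itself. Small beta subunits with a single membrane span alter its gating and its place in the membrane, and act as adhesion molecules. Neurons and muscle are the best known users of these channels, and the endocrine cells of mouse islets also fire sodium action potentials.

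Total estimated counts ran from 6611967 to 15074489 in the tumours and from 48848987 to 51669489 in normal pancreas. Levels between genes are given below in TPM, RSEM's transcript abundance, which is per transcript length and has the same total in every library. Differences between tissues rest on counts, tested with edgeR, and on CPM, the count relative to a library's size after TMM scaling. The scaled library sizes were 14440614 to 37625958 in tumour and 13225679 to 13577736 in normal pancreas. Scaling by total counts only moved the median log2 fold change over all genes to 3.55, against 0.38 with TMM. Over all 16810 genes tested, 39.2% were higher in tumour and 27.8% lower at an adjusted p under 0.05, 67% in either direction.

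Of the marker lists, the 6 acinar enzymes summed to 6.10 to 851 CPM in the tumours, against 963645 to 1000480 CPM in normal pancreas, on a scale where TMM sets the size of a normal library far below its total. All 6 fell by edgeR's test. The 6 islet hormone genes summed to 9737 to 23818 CPM in tumour, against 58.0 to 63.7 CPM in normal pancreas, and 4 of them rose. Most of the tumour sum was Sst, at 7464 to 18310 CPM. The insulin genes Ins1 and Ins2 did not pass, with log2 values of -0.87 and -1.35 (adjusted p = 0.378 and 0.162 in edgeR). All 6 neuron markers rose, and summed to 252 to 284 CPM in tumour, against 36.4 to 40.9 CPM in normal pancreas. Of 5 sympathetic genes 3 were tested and 1 rose, Th (tyrosine hydroxylase), whose promoter drives Cre in these mice. Th had 11.4, 6.01 and 1.04 CPM in the tumours and 0 CPM in both normal libraries (adjusted p = 0.0104 in edgeR). Dbh, the enzyme that makes noradrenaline, had 0 counts in all 5 libraries. Of the sensory neuron list, 3 of 6 rose, and its axonal filament gene Prph was at or below 0.147 CPM in every library. All 5 smooth muscle markers rose, and summed to 63.9 to 76.5 CPM in tumour, against 8.32 to 9.83 CPM in normal pancreas. In bulk tissue, fewer cells of a type and less RNA per cell cannot be told apart, and the part of cell makeup in the results below was not tested.

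The pore-forming members fell into a group of 3 that the tumours transcribed and a pair that was near 0 everywhere. Scn3a, Scn8a and Scn9a had 0 counts in both normal libraries and from 276 to 1311 counts in each tumour library. Scn1a and Scn10a had at most 7 counts in any library. Each member tested passed the filter on low counts through 1 group only, Scn4b through normal pancreas and the others through tumour. Their calls are therefore in part set by that filter. Of the 8 members 6 were tested, and of these 4 passed as higher (39.2% of all genes tested did) and 1 as lower (27.8%), so that 5 passed in either direction (67%). Nothing is read from these shares, since the filter favoured members that are high in 1 of the groups.

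Scn3a, a pore-forming gene known from the embryonic brain and from neuroendocrine cells, had the highest mean level of the 8 in tumour, although Scn8a was slightly above it in tumour replicate 1. It lies on chromosome 2, 65457118 to 65567627, - strand (GRCm38). It had 4.90, 8.50 and 7.67 TPM in the tumours, and was at 0 TPM in both normal libraries. On the CPM scale these tumour levels were 23.5, 40.6 and 42.9, and 0 CPM was found in normal pancreas. Every tumour stood above both normal libraries, and tumour replicate 1 was the lowest of the 3. Set against a floor of 3 counts over the normal group, Scn3a was at least 298-fold higher (adjusted p = 0.000124 in edgeR). The floor depends on depth, and without normal pancreas replicate 1 or 2 the bound was 151 or 147. By mean tumour TPM, 3064 protein-coding genes stood above Scn3a, and 86% stood below it.

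Scn8a encodes the channel of nodes of Ranvier and axon initial segments (chromosome 15, 100869858 to 101045938, + strand). It had 5.05, 2.12 and 3.01 TPM in the tumours and 0 TPM in both normal libraries. Its counts were 728, 329 and 276 in the tumours, or 19.3, 10.2 and 19.1 CPM. Tumour replicate 1 was the highest in TPM. On the CPM scale replicates 1 and 3 were level and replicate 2 was the lowest. Scn8a was at least 141-fold higher in tumour (adjusted p = 0.000247 in edgeR), or 71.5-fold and 69.7-fold without normal pancreas replicate 1 and 2.

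Scn9a, best known from pain-sensing and sympathetic neurons and also used by mouse beta cells, lies on chromosome 2, 66480080 to 66634962, - strand. It had 1.24, 3.18 and 3.59 TPM in the tumours and 0 TPM in both normal libraries. The tumours spread 4.21-fold on the CPM scale, at 9.99, 34.2 and 42.0 CPM, with replicate 1 the lowest. Scn9a was at least 221-fold higher in tumour (adjusted p = 0.00164 in edgeR), or 112-fold and 109-fold without normal pancreas replicate 1 and 2. The calls of Scn3a, Scn8a and Scn9a held in all 17 alternative settings.

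Promoter windows of Scn8a and Scn9a are shown because both genes had 0 counts in normal pancreas and were higher in tumour. Their order between tumours differed, and the sequence before their RefSeq starts differs in CpG content. Each run is the 250 bases before the RefSeq transcript start on GRCm38.p6, read 5′ to 3′ on the gene's strand, with CG dinucleotides in capitals.
Scn8a, chr15:100870395-100870644, + strand: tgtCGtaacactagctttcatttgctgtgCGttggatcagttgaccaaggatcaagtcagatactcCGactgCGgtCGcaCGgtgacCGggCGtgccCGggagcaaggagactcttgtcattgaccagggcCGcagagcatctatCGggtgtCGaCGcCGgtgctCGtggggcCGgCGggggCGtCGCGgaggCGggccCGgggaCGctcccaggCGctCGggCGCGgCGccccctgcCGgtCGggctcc
Scn9a, chr2:66634963-66635212, - strand: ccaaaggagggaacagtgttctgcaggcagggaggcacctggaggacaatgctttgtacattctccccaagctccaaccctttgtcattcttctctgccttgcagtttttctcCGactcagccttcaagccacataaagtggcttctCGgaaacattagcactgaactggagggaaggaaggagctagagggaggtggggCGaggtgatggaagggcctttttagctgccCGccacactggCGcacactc
The Scn8a window held 30 CG dinucleotides and was 68.0% G or C. Only 5.94% of the 32851 mouse promoter windows held as many. The Scn9a window held 5, a number reached by 55.6% of windows, and was 54.4% G or C. The Scn8a window lies inside the gene span given above, all 250 bases of it, since that span starts at an earlier annotated transcript, and the Scn9a window lies outside its gene's span. Scn8a has a second RefSeq start, whose window held 9. RefSeq promoter entries were found for 6 of the 8 genes, and Scn3a and Scn3b were the others.

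Scn1a, a channel of inhibitory interneurons that is mutated in human epilepsies, was barely detected. It had 0, 0.03 and 0.04 TPM in the tumours, from 0, 7.01 and 4.04 estimated counts, and 0 TPM in both normal libraries. A count of 0 over the normal libraries allows up to 0.112 CPM. Scn10a, a tetrodotoxin-resistant channel of pain-sensing neurons, had 1 count in tumour replicate 1 and 0 elsewhere. A count of 0 allows up to 0.0929 CPM in tumour replicate 2 and 0.208 CPM in tumour replicate 3. Neither gene passed the filter on low counts. A two-sided exact permutation test of the TPM values gave p = 0.6 for Scn1a and p = 1 for Scn10a. This test doubles the smaller 1-sided p, so 0.2 is the least that it can give for 3 against 2 libraries. A difference in these genes was not detectable at this depth.

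**Figure D1:**
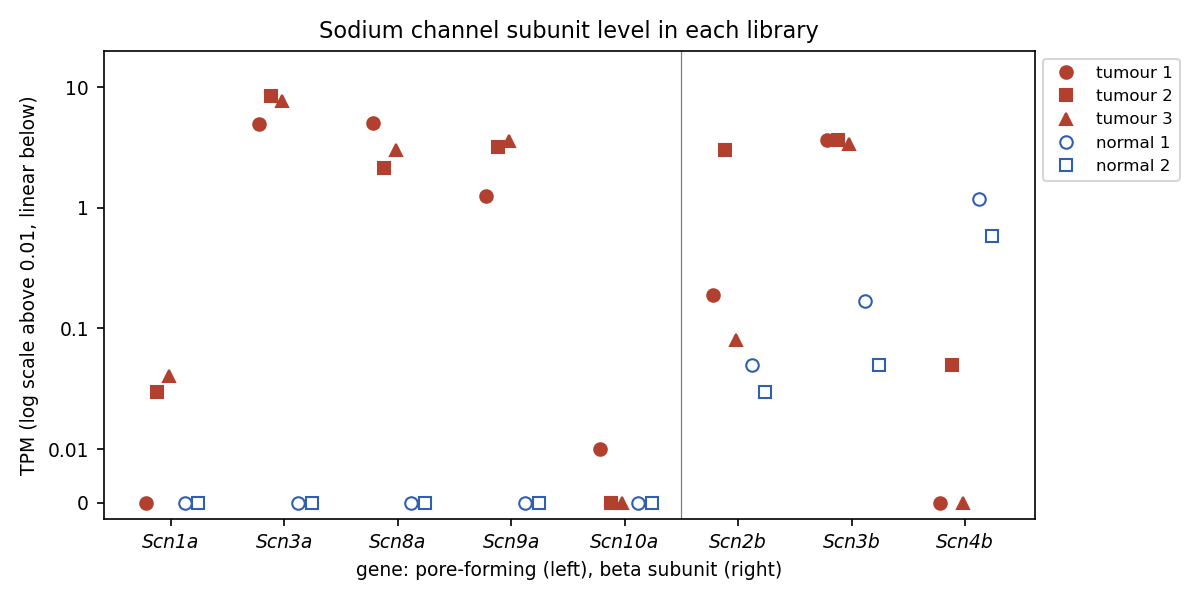
TPM of each gene in each library, on an axis that is logarithmic above 0.01 and linear below; filled red symbols are the 3 tumours and open blue symbols the 2 normal libraries. Scn3a, Scn8a, Scn9a and Scn3b stand above both normal libraries in every tumour, Scn2b is high in tumour replicate 2 (3.03 TPM), and Scn4b is higher in normal pancreas.

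The mixture of pore-forming transcripts differed between tumours. Of the summed TPM of the 5 pore-forming members, Scn3a made up 43.8%, 61.5% and 53.6% in tumour replicates 1, 2 and 3. Scn8a made up 45.1%, 15.3% and 21%, and Scn9a made up 11.1%, 23.0% and 25.1%. Scn8a and Scn3a were thus level in tumour replicate 1, and Scn3a led in the other tumours. The summed level itself was 11.2, 13.8 and 14.3 TPM in the tumours. Shares and sums in TPM rest on the estimated transcript lengths, which for Scn8a were 3612, 4228 and 4627 bases. In CPM, Scn8a was level in tumour replicates 1 and 3, at 19.3 and 19.1. Scn3a (23.5 against 42.9 CPM) and Scn9a (9.99 against 42.0 CPM) were lower in replicate 1 than in replicate 3. In normal pancreas the sum was 0 TPM and no share could be given.

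**Figure D2:**
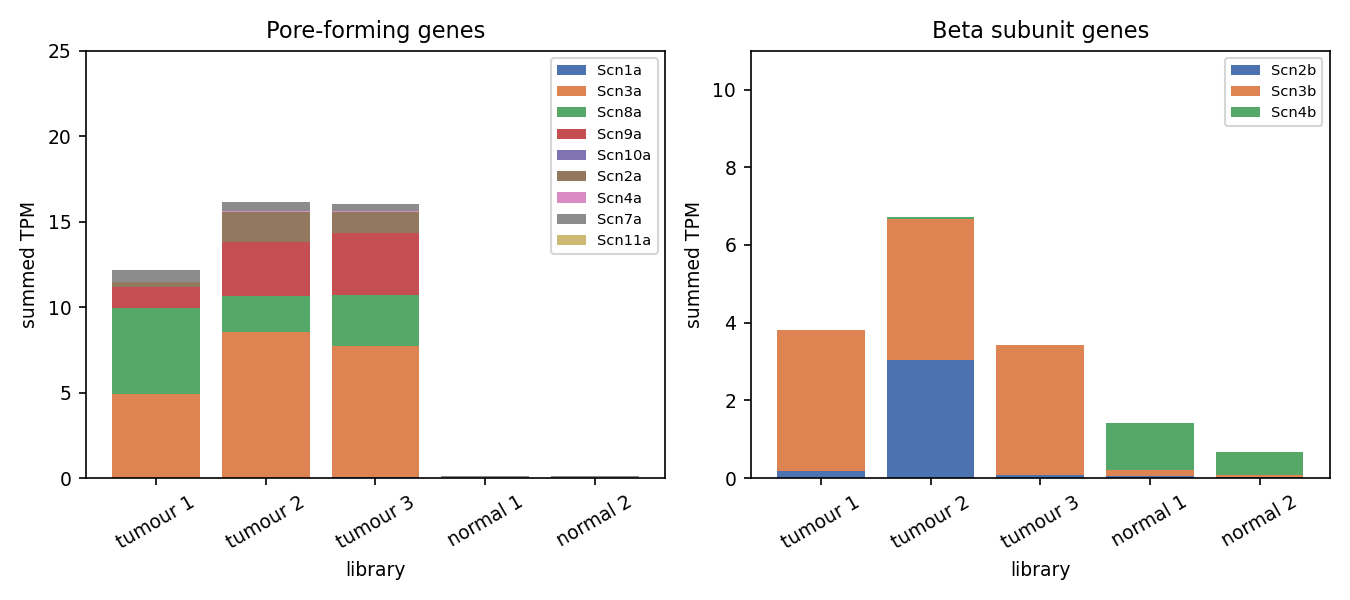
Stacked TPM of the pore-forming genes (left) and beta subunit genes (right) in each library, with the tumours left of the normal libraries and the other pore-forming genes given here included. Scn3a, Scn8a and Scn9a fill most of the tumour bars on the left, whose totals are 12.2, 16.2 and 16.1 TPM; on the right Scn3b leads in all 3 tumours, with Scn2b close to it in replicate 2, and Scn4b leads in normal pancreas.

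The beta subunits each took a different course. Scn3b rose, Scn4b fell, and Scn2b was high in a single tumour and did not pass the test. Scn3b encodes a beta subunit that binds the pore-forming subunit without a covalent bond (chromosome 9, 40269217 to 40291618, + strand). It had 3.62, 3.64 and 3.35 TPM in the tumours, against 0.17 and 0.05 TPM in normal pancreas. On the CPM scale it had 9.94, 13.7 and 13.5 in tumour, against 0.832 and 0.589 in normal pancreas. The groups did not overlap, and the tumours agreed closely with each other, with a mean of 3.54 TPM ± 0.162 (SD, n = 3). Scn3b rose by 4.11 in log2 units (SE 0.30, adjusted p = 8.64e-05 in edgeR), and passed as higher in all 17 alternatives.

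Scn4b, whose product binds the channel through a disulfide bond and is known for the resurgent current of Purkinje neurons, was the member that fell. It had 0, 0.05 and 0 TPM in the tumours, against 1.19 and 0.58 TPM in normal pancreas. Its counts were 1, 10 and 0 in tumour, against 248 and 128 in normal pancreas. Every tumour was below both normal libraries, although the normal libraries differed from each other, at 18.8 and 9.43 CPM. Scn4b fell by 6.71 in log2 units (SE 0.78, with an adjusted p of 0.000506 in edgeR). Without tumour replicate 1 the log2 value was -6.05, and without tumour replicate 2, which held 10 of the 11 tumour counts, it was -9.11. The striated muscle markers, from a tissue that also uses Scn4b, summed to 0.415 to 1.67 CPM in tumour and 0.605 to 1.18 CPM in normal pancreas. The whole normal sum was Ckm, which had 0.0266, 0 and 0 CPM in the tumours, where the other markers made up the sum. All 6 acinar markers fell as well. Of the 3 Schwann markers tested 2 fell and 1 rose, and of the 4 endothelial markers 1 fell and 1 rose (27.8% of all genes tested fell). The part of muscle or of these other cells in the Scn4b values was not tested.

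Scn2b encodes the other disulfide-bound beta subunit among the members, known from brain. It had 0.19, 3.03 and 0.08 TPM in the tumours, against 0.05 and 0.03 TPM in normal pancreas. Tumour replicate 2 held 521 of the 563 tumour counts, and the other tumours were close to the normal libraries. The log2 value was 3.30 (SE 1.68, adjusted p = 0.122 in edgeR), and 0.31 without tumour replicate 2 (adjusted p = 0.651 in edgeR). Tumour replicate 2 also had the highest sum of the 4 immune markers, 120 CPM, against 56.3 and 48.6 in tumour replicates 1 and 3 and 91.2 and 38.6 in normal pancreas. Of these markers Ptprc was highest there, at 39.0 CPM against 8.05 and 6.30 in tumour replicates 1 and 3. Cd68 was level with tumour replicate 1, at 4.24 and 4.23 CPM. The neuron marker sum of tumour replicate 2, 252 CPM, was near the 260 and 284 CPM of replicates 1 and 3. Of that 252 CPM, Map2 made up 174. The part of these cells in the Scn2b value was not tested.

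Scn2b and Scn4b are neighbours on chromosome 9, at 45117782 to 45130070 and 45138395 to 45154152, both on the + strand, with 8324 bases between them. Their promoter windows are shown because Scn4b fell while its neighbour of related function did not pass the test, and their sequences differ. The windows are the 250 bases before the RefSeq start, with CG dinucleotides in capitals. Of these, 94 bases for Scn2b and 229 for Scn4b lie inside the gene spans given above, which start at the first annotated transcript.
Scn2b, chr9:45117626-45117875, + strand: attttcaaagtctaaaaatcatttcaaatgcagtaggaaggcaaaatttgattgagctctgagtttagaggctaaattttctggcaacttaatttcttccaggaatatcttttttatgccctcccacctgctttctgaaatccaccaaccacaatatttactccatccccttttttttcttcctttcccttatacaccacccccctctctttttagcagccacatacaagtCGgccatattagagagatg
Scn4b, chr9:45138374-45138623, + strand: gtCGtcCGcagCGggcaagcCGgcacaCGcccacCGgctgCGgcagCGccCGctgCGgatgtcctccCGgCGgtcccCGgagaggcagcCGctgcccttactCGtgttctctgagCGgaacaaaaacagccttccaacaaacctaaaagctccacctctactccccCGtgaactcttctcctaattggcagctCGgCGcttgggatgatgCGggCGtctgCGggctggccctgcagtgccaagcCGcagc
The Scn2b window held 1 CG dinucleotide and was 38.4% G or C, and 92.1% of all windows held at least as many. The Scn4b window held 23 and was 66.0% G or C, and 13.3% of all windows held as many. Read on both strands, none of the 7 member windows held the E-box that MYC binds, with the letters CACGTG, which 6.02% of all windows held. The same was true of the TATA box, searched as the letters TATAAA, which 12.4% of all windows held. It was also true of the left part of the REST element, searched as the letters TTCAGCACC, which 0.301% of all windows held. The absence of a match says only that these letters are not in these windows.

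Ranked by mean TPM in tumour, the order was Scn3a at 7.02 ± 1.89, Scn3b at 3.54 ± 0.162, Scn8a at 3.39 ± 1.5, Scn9a at 2.67 ± 1.26 and Scn2b at 1.10 ± 1.67 (SD, n = 3 each). Scn3a was above Scn3b in every tumour. The means of Scn3b and Scn8a, and those of Scn8a and Scn9a, differed by less than the SD of Scn8a, and each of the 3 genes changed rank between tumours. Scn1a, Scn4b and Scn10a followed at 0.0233, 0.0167 and 0.00333 TPM. In normal pancreas the order was led by Scn4b at 0.885 ± 0.431 TPM, then Scn3b at 0.11 ± 0.0849 and Scn2b at 0.04 ± 0.0141 (SD, n = 2 each). The other 5 members were at 0 there.

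**Figure D3:**
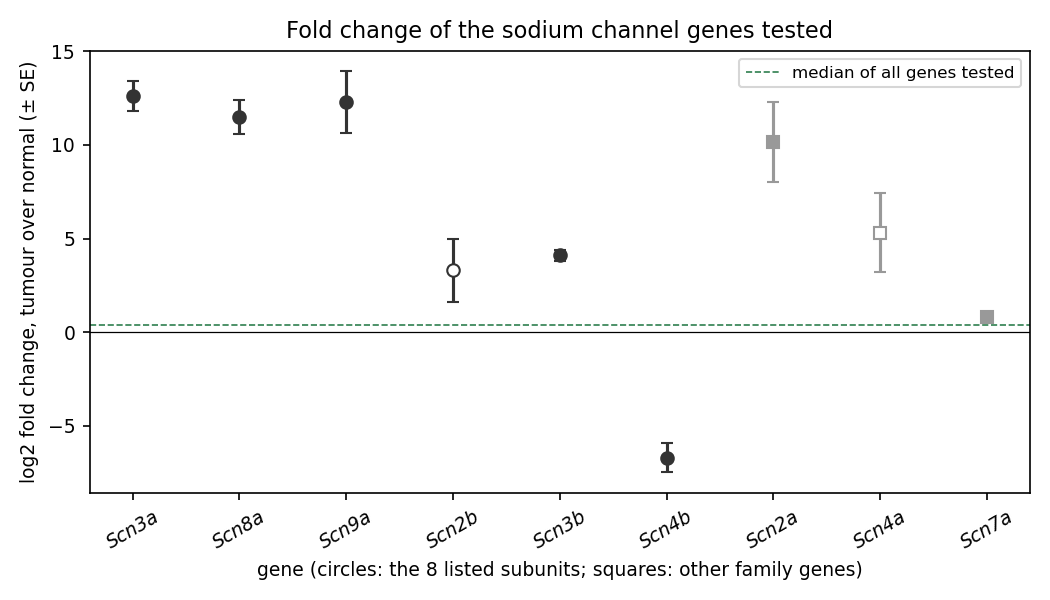
Log2 fold change, tumour over normal, with its SE, of the members (circles) and other sodium channel genes (squares) that were tested; filled symbols passed edgeR's test at an adjusted p under 0.05 and the dashed line is the median of all genes, 0.38. Values of genes at 0 in normal pancreas (Scn3a, Scn8a, Scn9a, Scn2a and Scn4a) depend on the prior count of the fit, so only their direction is to be read; Scn4b is the lowest.

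Of 4 other sodium channel genes of the family, all of the pore-forming type, 3 were tested, 2 rose and 1 did not pass. Over all genes tested, 39.2% rose. Scn2a, a channel of excitatory neurons next to Scn3a on chromosome 2, had 0.28, 1.73 and 1.28 TPM in the tumours and 0 TPM in both normal libraries. Scn2a was at least 51.2-fold higher (adjusted p = 0.00874 in edgeR). This bound was 83.4 without tumour replicate 1, 28.7 without tumour replicate 2, and 25.9 or 25.2 without normal pancreas replicate 1 or 2. Scn7a, an atypical family member known as a sensor of extracellular sodium, had the most RNA in normal pancreas among the pore-forming genes given here. It had 0.67, 0.56 and 0.43 TPM in the tumours, against 0.10 and 0.13 TPM in normal pancreas. The difference was smaller on the CPM scale, at 5.34, 4.77 and 4.43 in tumour against 2.42 and 3.17 in normal pancreas. Scn7a rose by 0.80 in log2 units (SE 0.26, adjusted p = 0.0303 in edgeR), but lost its call without tumour replicate 1 (0.0673) or 2 (0.0507) and without normal pancreas replicate 1 (0.166) or 2 (0.0584). Its log2 value turned to -0.40 with the length trend removed (adjusted p = 0.173 in edgeR). Scn4a, the skeletal muscle channel, had 17 tumour counts and 0 in normal pancreas and did not pass (adjusted p = 0.0704 in edgeR). Scn11a, a channel of pain-sensing neurons, had 7 counts in tumour and 0 in normal pancreas, too few to test.

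Genes that anchor or modulate sodium channels rose in 8 of 12 tested cases, from 14 listed, and 4 did not pass. Over all genes tested, 39.2% rose. Listed genes with few normal counts entered the test through tumour. Nothing is therefore read from such shares or from the medians, here or for the lists below. The median log2 fold change of the anchoring and modulating genes was 2.78, against 0.38 over all genes tested. Ank2, an ankyrin, rose by 7.54 (SE 0.33, adjusted p = 2.42e-05 in edgeR), with 108 to 163 CPM in tumour against 0.605 and 0.884 CPM in normal pancreas. Ank3, the ankyrin that holds sodium channels at the axon initial segment, had 54.9, 46.4 and 59.1 CPM in tumour against 10.4 and 13.3 CPM in normal pancreas. Sptbn4, the spectrin of that site, was 195-fold higher by pooled counts (95% exact interval 66.7 to 947), from 3 counts in normal pancreas, all in replicate 2. The ratio was 98.9 without normal pancreas replicate 1, and at least 96.3 without replicate 2. Dpysl2, a cytosolic protein reported to regulate the Scn9a channel, rose by 5.36 (SE 0.25, adjusted p = 2.70e-05 in edgeR). The channel-binding factors Fgf12 and Fgf14 also rose. The weakest of the 8 calls was that of Nedd4, a ubiquitin ligase that removes sodium channels from the membrane, which was lost in 8 of 17 alternatives and changed sign in another (-0.17 with the length trend removed). Cntn1, an adhesion molecule that binds beta subunits, did not pass (adjusted p = 0.0530 in edgeR), with 0.133, 41.1 and 17.9 CPM in the tumours and 0 CPM in normal pancreas. Cntn1 passed without tumour replicate 1, its low sample (adjusted p = 0.000495 in edgeR), but not without tumour replicate 2 (0.0711) or 3 (0.0895). It passed in 7 of 17 alternatives.

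All 4 genes of the sodium leak channel complex rose (39.2% of all genes tested did), with a median log2 of 7.97. This channel is not opened by voltage steps and sets the resting potential. Its pore gene Nalcn had 21.2, 25.3 and 32.8 CPM in the tumours, against 0.227 and 0.221 in normal pancreas (log2 fold change 6.84, SE 0.35, adjusted p = 3.26e-05 in edgeR). Unc79 rose by 3.91 (SE 0.17, adjusted p = 2.37e-05 in edgeR). Unc80 had 7716 counts in tumour, against 1 in normal pancreas, a ratio of 2452 (95% exact interval 440 to 96850). Without normal pancreas replicate 2, which held that count, Unc80 was at least 403-fold higher. These subunits fold and regulate the Nalcn channel.

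Of 7 listed sodium channel genes of other families, the epithelial (ENaC) and acid-sensing (ASIC) channels, 6 were tested. Of these 4 rose (39.2% of all genes tested did) and 1 fell (27.8%). Asic2 rose by 6.38 (SE 0.33, adjusted p = 3.22e-05 in edgeR) and Asic1 by 5.25 (SE 0.56, adjusted p = 0.000375 in edgeR). Scnn1b, an ENaC subunit, varied between tumours, with 13.4, 0.496 and 9.21 CPM, against 0.0756 and 0.0736 in normal pancreas. The gene passed (adjusted p = 0.0191 in edgeR), but not without normal pancreas replicate 1 (0.107) or 2 (0.108). The gene that fell was Scnn1a, which forms the ENaC pore with it (log2 -1.98, adjusted p = 0.0461 in edgeR), and this call was lost in 9 of 16 alternatives and turned positive in another.

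The sodium pump restores the gradient that the channels use. Of its 3 beta subunit genes 1 rose (39.2% of all genes tested did), 1 fell (27.8%) and 1 did not pass. Their median log2 was -0.47, against 0.38 over all genes tested. Atp1b1 rose by 2.13 (SE 0.23, adjusted p = 4.00e-04 in edgeR), with CPM values of 67.2, 75.1 and 105 in tumour, against 19.2 and 18.4 in normal pancreas. Atp1b3 fell by 0.69 (SE 0.20, adjusted p = 0.0207 in edgeR), a call that was lost without either normal library. All 3 passed as higher when scaled by total counts only, Atp1b3 at a log2 of 2.48, and on both log2 TPM scales. Rest, the repressor of neuronal genes that is known for binding sodium channel genes, had 6.62, 5.73 and 3.95 CPM in tumour against 8.39 and 7.07 CPM in normal pancreas. Rest missed the threshold (log2 -0.50, SE 0.26, adjusted p = 0.131 in edgeR), and its sign turned with total counts only (2.7), while it passed as lower with the length trend removed (-1.64).

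**Figure D4:**
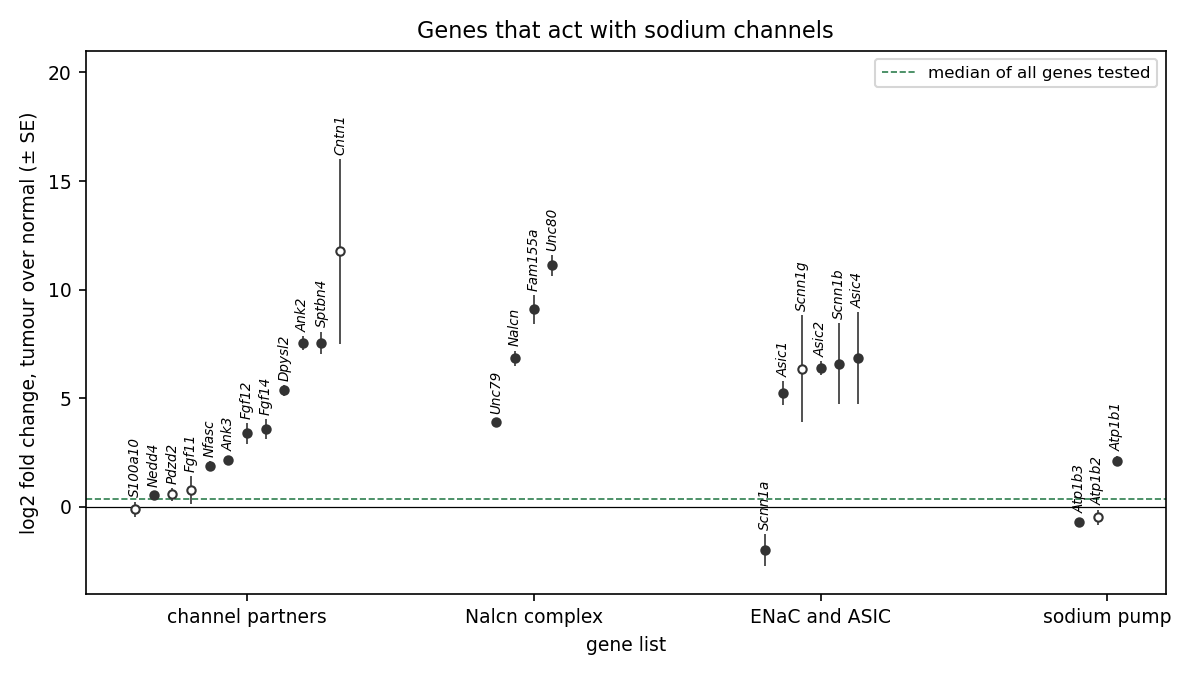
Log2 fold change, tumour over normal, with its SE, of the genes tested in each list; filled symbols passed edgeR's test and the dashed line is the median of all genes (the value of Cntn1, at 0 in normal pancreas, depends on the prior count). All 4 Nalcn complex genes are above 3.9, and the sodium pump genes lie between -0.69 and 2.13. Of the channel partners 8 of 12 passed as higher, against 39.2% of all genes tested.

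The protein-coding genes whose profile was closest to Scn3a over the 5 libraries, by Euclidean distance in log2(CPM + 0.5), were Rgs17 at 0.227, Tmem179 at 0.285, Tmem59l at 0.405, Grin1 at 0.424 and St8sia3 at 0.43. Rgs17 had 23.9, 37.8 and 41.8 CPM in the tumours, against 0 and 0.0737 CPM in normal pancreas. For Scn3b the nearest were Gspt2 at 0.283, Rragb at 0.356, Amigo2 at 0.481, Zfp941 at 0.532 and Piezo2 at 0.545. Gspt2 had 8.66, 13.8 and 12.8 CPM in the tumours, against 0.68 and 0.663 CPM in normal pancreas. The libraries in this measure differ in depth and tissue, and the distances are a description.

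**Figure D5:**
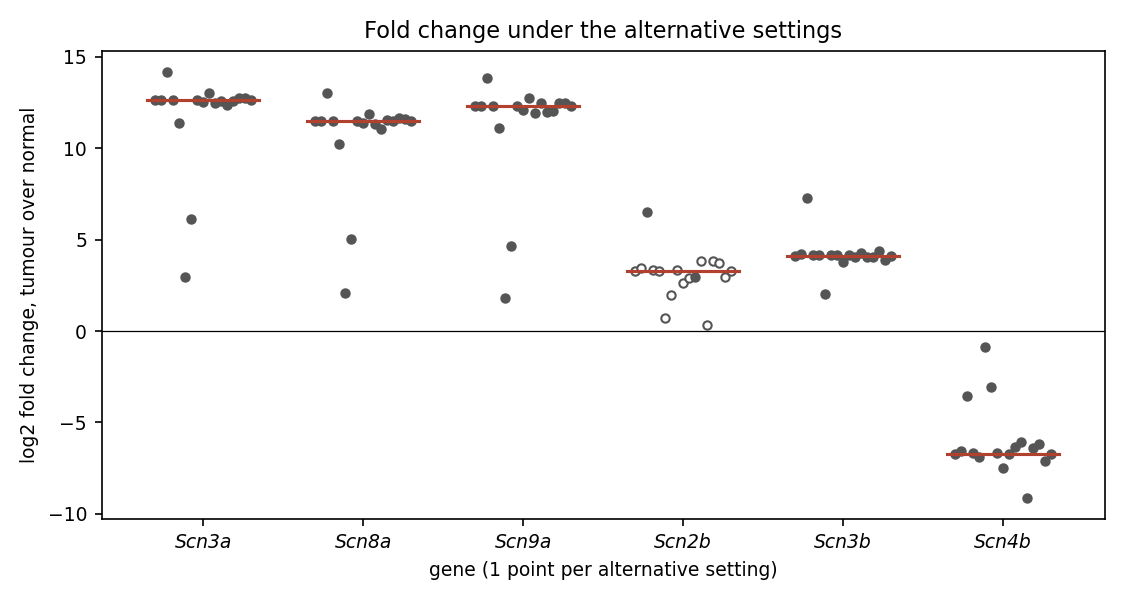
Log2 fold change of the 6 tested members under each of the 17 alternative settings (points, filled where they passed) and as reported (red line). Scn3a, Scn8a, Scn9a and Scn3b stay above 0 and Scn4b below 0 in every setting shown, and Scn2b passed in 2.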

How the data were processed

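The submitters' processing notes name RSEM 1.31, STAR 2.7 and Trim Galore 0.60, and the builds GRCm38 and mm10. No source used here gives their settings, the annotation release or the strandedness. The authors deposited RSEM expected counts per gene, which divide shared reads between similar genes, and TPM values computed from them and each gene's effective length. Of the members, 3 (Scn1a, Scn3a and Scn9a) had fractional counts, so reads shared within the chromosome 2 cluster make their division uncertain. Counts were rounded, and 92 spike-in rows, all at 0, were left out. Overlapping antisense genes held at most 1 count in any library.

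Tests used edgeR 4.0.16 in R 4.3.3 (glmQLFit, glmQLFTest, TMM, filterByExpr) with Benjamini-Hochberg adjustment over 16810 genes, checked on simulated counts. SE is the absolute log2 fold change over the square root of F. Alternatives used DESeq2 1.42.0 and limma 3.58.1 on log2(TPM + 1) and log2(TPM + 0.1). Intervals and floors (3 counts) cover counting error only. Coordinates are from GENCODE M21, matched by gene identifier, and 7 of the 8 members matched with version. Named genes were all members, other family genes, up to 3 per context list by smallest p, Rest and the nearest profiles, and others named were chosen after their values were seen. Some genes of these lists are not reported here, and counts are over the genes that are. The members, lists and promoter motifs were chosen with earlier results of these data known.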

Additional observations from a re-analysis of the deposited data

How the results depend on the processing

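Of 17 alternatives, none moved a member's call except for Scn2b, which passed when scaled by total counts only (log2 6.53) and with the replicate block (2.96), so that 5 members were higher there, against 4 otherwise. Replicate numbers were shared by titles only. Deviations of same-numbered libraries from their group means had r = -0.0778 and -0.138 over genes. With 2 normal libraries these deviations mirror each other, so the values cannot decide whether the numbers pair the samples. With the replicate block, 1 other family gene was higher in place of 2.

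Over all genes, 6587 were higher and 4669 lower. These counts were 15681 and 398 with total counts only, 10665 and 1173 by limma on log2(TPM + 1), and 11558 and 1192 on log2(TPM + 0.1). Tested against a fold change of 2, a setting chosen after seeing the data, 2374 were lower.

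For the other genes of the family, 2 higher, 1 was higher with the length trend removed, 1 against a fold of 2, and 1 to 2 without single libraries. Of the ENaC and ASIC genes, 2 were higher by limma on log2(TPM + 1), and 2 to 5 without single libraries. The 1 lower gene was 0 with upper-quartile scaling, total counts only, no filter, both TPM scales, protein-coding genes only and the fold of 2, and 0 to 1 without single libraries. Of the sodium pump genes, 1 higher, 3 were higher with total counts only and on both TPM scales. The 1 lower gene was 0 with total counts only, on both TPM scales and with the fold of 2, and 0 to 1 without single libraries.

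Signs turned as follows. With total counts only, S100a10 was 3.08, Scnn1a 1.20, Atp1b2 2.7, Atp1b3 2.48 and Rest 2.7. On log2(TPM + 1) and log2(TPM + 0.1), S100a10 was 1.19 and 1.36, Atp1b2 0.65 and 1.56, Atp1b3 0.70 and 0.76, and Rest 0.30 and 0.73. With the length trend removed, Scn7a was -0.40, Nedd4 -0.17, S100a10 0.32 and Pdzd2 -0.44. S100a10 was 0.023 with upper-quartile scaling and -0.44 to 0.36 without single libraries. The cause of these turns was not tested. Where a single normal library was left, it was assumed to vary like the others. Depth limits Scn1a, Scn10a and Scn11a, which could not be tested.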

Other observations

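The family's chromosome 2 genes lie within 1328 kb, and their neighbours, chosen after their values were seen, did not share a direction. Csrnp3, between Scn2a and Galnt3, had 903, 484 and 403 counts in the tumours and 0 in both normal libraries (adjusted p = 0.000153 in edgeR). Galnt3, a glycosyltransferase gene, had 99, 62 and 74 counts in tumour against 184 and 209 in normal pancreas, and fell by 2.23 in log2 units (SE 0.39, adjusted p = 0.0028 in edgeR). Ttc21b, a gene of primary cilia next to Scn1a, rose by 1.19 (SE 0.23, adjusted p = 0.00457 in edgeR). Scn1a itself, between Ttc21b and Scn9a, stayed at 0, 7.01 and 4.04 counts in the tumours and 0 in normal pancreas. On chromosome 9, Tmprss4, a serine protease gene near Scn4b, had 4, 3 and 0 counts in tumour against 37 and 44 in normal pancreas. Tmprss4 fell by 5.16 (SE 0.63, adjusted p = 0.000638 in edgeR). Mpzl3, on the Scn2b side, also fell (log2 -2.04, SE 0.35, adjusted p = 0.00275 in edgeR). Jaml, near Scn2b, had 5, 31 and 1 counts in tumour against 3 and 3 in normal pancreas, and was not tested.

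The mean transcript length that RSEM reports per gene, weighted by the estimated share of each isoform, varied between tumours for the pore-forming members. It was 3612, 4228 and 4627 bases for Scn8a, and 7386, 9207 and 8401 bases for Scn9a in tumour replicates 1, 2 and 3. For Scn3a it was 4477, 4192 and 4107 bases. In normal pancreas, with 0 counts of these genes, the value carries no information on isoforms. For Scn3b it was 2640, 3353 and 3011 bases in tumour, against 1705 and 3527 bases in normal pancreas, where 11 and 8 counts set it. TPM rests on these lengths.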
